A study of Homo sapiens with 6 samples.

Results

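Transcripts of 10 genes of oxygen sensing and collagen maturation, among the 78304 genes in the deposited table, were followed in the human liver cancer cell line Huh7, which derives from a hepatocellular carcinoma. They are HIF1A, EPAS1, VHL, EGLN1, EGLN2, EGLN3, HIF1AN, P4HA1, P4HA2 and LOX. They were chosen by symbol, each symbol occurred once, and all 10 reached the minimum of 1 TPM on average that admitted a gene to the test. Poly(A) RNA was sequenced from 3 libraries of cells given the compound 16'-DEC and 3 of cells given DMSO, its vehicle. In both groups the Huh7 cells, labelled WT, were seeded for 24 h and treated for a further 24 h. The compound is known here only by its code, and no dose is stated. Nor do the labels state whether the 3 replicates of a group were grown apart, and the p-values therefore cover no more than the scatter among these 6 libraries. The sequencing was meant to show which transcripts 16'-DEC alters, in a study of autophagy and of its activity against liver cancer.

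The hypoxia-inducible factors (HIF) are transcription factors whose alpha subunits, encoded by HIF1A and EPAS1, are made continuously and destroyed when oxygen is present. The oxygenases encoded by EGLN1, EGLN2 and EGLN3 hydroxylate prolines of the alpha subunit, VHL recognises the hydroxylated protein and directs it to the proteasome, and HIF1AN hydroxylates an asparagine and so blocks the recruitment of coactivators. P4HA1 and P4HA2 are alternative catalytic subunits of the collagen prolyl 4-hydroxylase, which works in the endoplasmic reticulum and shares the chemistry of the EGLN enzymes. LOX is a secreted amine oxidase that cross-links collagen and elastin. EGLN1, EGLN3, P4HA1, P4HA2 and LOX are known as HIF target genes. HIF activity is set largely at the level of the protein, which was not measured here.

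The values are TPM, transcript abundances scaled per gene length and to a fixed sum in each library. They carry no absolute depth, and a change in abundant transcripts shifts all others. In the 16'-DEC libraries 13131 to 13459 genes reached 1 TPM, against 14936 to 15118 in DMSO, and mitochondrially encoded genes took 11.3% to 11.7% of TPM with 16'-DEC and 10.7% to 12.8% in DMSO. All 11 hepatocyte and hepatoma markers, among them ALB and AFP, passed the minimum, with a summed level of 15266 to 15550 TPM with 16'-DEC and 15360 to 15632 TPM in DMSO. Within these sums single markers moved both ways: AFP had 827 to 1043 TPM with 16'-DEC and 2510 to 2849 TPM in DMSO, and APOB 119 to 273 TPM with 16'-DEC and 504 to 722 TPM in DMSO, while KRT8, KRT18 and APOA1 were higher with 16'-DEC in every library. Of 7 fibroblast markers only PDGFRB passed; DCN was listed at 0 in every library, and the list summed to 0.737 to 2.30 TPM with 16'-DEC and 1.71 to 2.62 TPM in DMSO. None of 5 endothelial markers passed, with sums of 0.319 to 0.722 TPM with 16'-DEC and 0.209 to 0.526 TPM in DMSO. Of 4 leukocyte markers CD68 and LYZ passed, and the 4 summed to 872 to 992 TPM with 16'-DEC and 1652 to 1825 TPM in DMSO. Nearly all of this was LYZ, at 826.5 to 948 TPM with 16'-DEC and 1633 to 1807 TPM in DMSO, whereas CD68 had 35.1 to 44.4 TPM with 16'-DEC and 15.98 to 17.2 TPM in DMSO. The defining leukocyte gene PTPRC was at 0.003 to 0.034 TPM with 16'-DEC and 0.059 to 1.17 TPM in DMSO. The part of these genes in the results that follow was not tested. In such a bulk measurement, fewer cells with a transcript and less of it per cell cannot be told apart.

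HIF binds DNA at a core of the letters ACGTG or GCGTG, so both were searched on both strands (CACGT and CACGC on the other) in the 250 bases before the first listed start of each gene in the RefSeq promoter table (GRCh38.p14). A window was found for 9 of the 10 genes, all but VHL. ACGTG occurred in 4 of these 9 windows, against 18.5% of all 35116 windows, and GCGTG in 2 (HIF1A and EPAS1), against 32.2%. Either core occurred in 6 of the 9, against 43.2% of all windows. The 4 windows with ACGTG, those of LOX, P4HA1, EGLN1 and EGLN2, are shown so that the position and number of the matches can be compared. They are written 5′ to 3′ on the strand of the gene, with the core letters in capitals. LOX held 4 matches, P4HA1 and EGLN1 held 1 each, and in EGLN2 the palindrome CACGTG gave 1 overlapping match on each strand. The LOX window is chr5:122078260-122078509 (minus strand), that of P4HA1 chr10:73096867-73097116 (minus strand), that of EGLN1 chr1:231422288-231422537 (minus strand) and that of EGLN2 chr19:40798941-40799190 (plus strand). A match is a description of the letters in these windows, not evidence of binding.
LOX: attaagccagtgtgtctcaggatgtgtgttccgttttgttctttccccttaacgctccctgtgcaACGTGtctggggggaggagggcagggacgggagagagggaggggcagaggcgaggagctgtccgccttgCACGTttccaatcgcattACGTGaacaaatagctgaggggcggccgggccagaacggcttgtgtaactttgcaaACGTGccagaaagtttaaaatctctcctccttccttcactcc
P4HA1: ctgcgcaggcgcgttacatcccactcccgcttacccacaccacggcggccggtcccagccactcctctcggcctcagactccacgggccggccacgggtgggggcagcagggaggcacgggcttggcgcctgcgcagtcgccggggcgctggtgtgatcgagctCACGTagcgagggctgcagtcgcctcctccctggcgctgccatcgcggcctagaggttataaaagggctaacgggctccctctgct
EGLN1: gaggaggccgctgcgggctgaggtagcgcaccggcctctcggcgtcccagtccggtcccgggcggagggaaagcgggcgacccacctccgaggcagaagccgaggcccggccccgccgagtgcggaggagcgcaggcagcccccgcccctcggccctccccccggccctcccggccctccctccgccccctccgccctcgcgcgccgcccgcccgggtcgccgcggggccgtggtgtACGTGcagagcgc
EGLN2: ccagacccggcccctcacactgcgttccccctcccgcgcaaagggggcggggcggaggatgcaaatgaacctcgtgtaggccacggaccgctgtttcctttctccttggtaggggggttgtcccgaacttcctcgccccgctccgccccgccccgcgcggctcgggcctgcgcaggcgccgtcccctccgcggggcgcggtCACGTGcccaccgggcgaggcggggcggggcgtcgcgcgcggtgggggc

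The comparison asked how these transcripts differed after 16'-DEC. LOX and HIF1A, the 2 most abundant of the 10 in DMSO, showed the largest decreases, and P4HA2 the largest increase. By limma on log2(TPM + 1), with Benjamini-Hochberg adjustment over all 14275 genes tested and a threshold of 0.05, 6 of the 10 fell, 3 rose and 1 (EGLN3) did not pass. Across all tested genes 71.5% were called, 48.9% as lower and 22.7% as higher, so the counts among the 10 were close to the background. The groups did not overlap in 9 of the 10 (6 below and 3 above DMSO), against 75.3% of all tested genes (51% below and 24.3% above). LOX and HIF1A were called with a decrease of at least 1 on the log2 scale, as were 23.7% of all tested genes, and P4HA2 with an increase of at least 1, as were 2.63%. The median change of the 10 was -0.31, as was that of all tested genes (-0.31), so a gene at that value had moved with the bulk of the table. Median-of-ratios scaling raised the median of all genes by 0.29, and 3 of the 10 were then called higher and 4 lower, where 37.1% of all genes were called higher and 37.7% lower (74.7% in all). Quantile normalization raised it by 0.415, and 4 of the 10 were called higher and 4 lower, where 42% of all genes were called higher and 33.3% lower (75.2% in all).

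**Figure D1:**
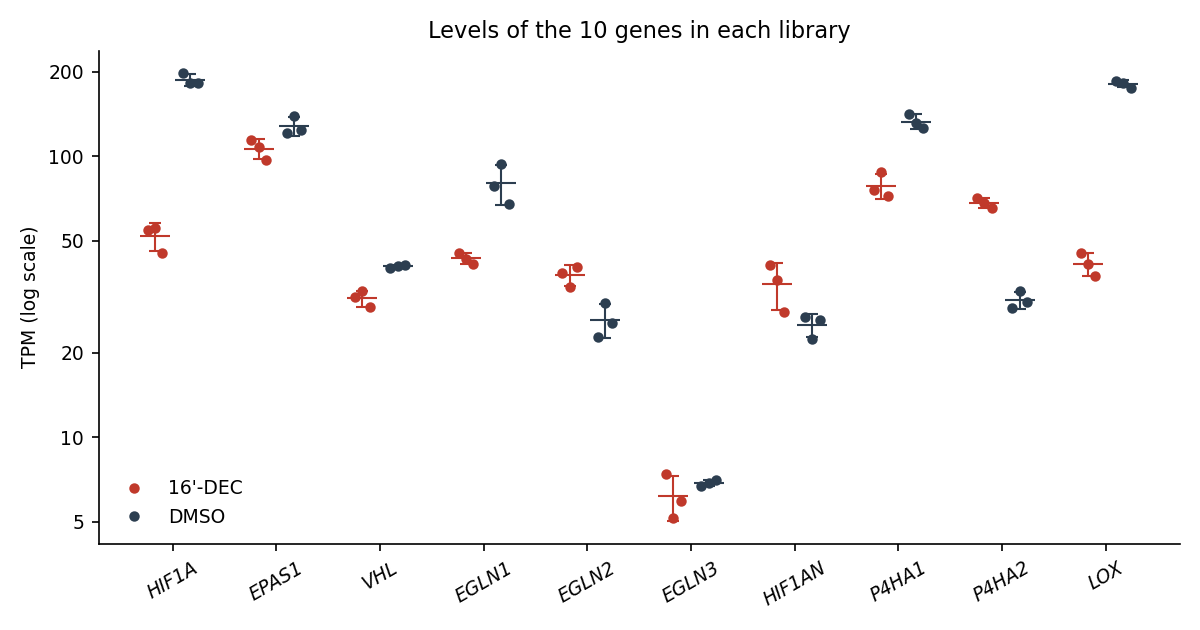
TPM on a log axis for the 10 genes, with 16'-DEC libraries left of DMSO libraries; points are libraries and bars are the mean ± SD of 3. The 16'-DEC libraries of HIF1A (45.3 to 55.7 TPM) and LOX (37.6 to 45.4 TPM) sit far below those of DMSO, P4HA2 sits above (65.2 to 71.0 against 28.9 to 33.2 TPM), and EGLN3 is the only gene of the 10 whose groups overlap.

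HIF1A (ENSG00000100644, chromosome 14, 61695513 to 61748259; GRCh38, GENCODE 29, as for all gene positions), which encodes the widely expressed HIF alpha subunit, had 54.8, 55.7 and 45.3 TPM in the 16'-DEC libraries and 197, 182 and 182 TPM in the DMSO libraries. Every treated library lay below every DMSO library by more than the spread within either group. The mean was 51.9 ± 5.80 TPM with 16'-DEC and 187 ± 8.89 TPM in DMSO (SD, n = 3 each), 3.60-fold lower with 16'-DEC. The change was -1.83 ± 0.0937 on the log2(TPM + 1) scale (± SE; limma adjusted p = 4.59e-07), below that of all but 5.77% of tested genes. EPAS1 (ENSG00000116016, chromosome 2, 46293667 to 46386703), the other main alpha subunit, had 114, 108 and 97.2 TPM with 16'-DEC and 120, 139 and 124 TPM in DMSO. The groups did not overlap, but the gap between them was smaller than the spread within either. Its change of -0.26 ± 0.0880 passed (limma adjusted p = 0.0255), but it was 0.05 above the median of all genes, fell short of the threshold after adjustment for transcript GC content and length (-0.15), and was reversed by median-of-ratios scaling (0.09). EPAS1 did not pass without 16'-DEC replicate 2 (-0.27), 16'-DEC replicate 3 (-0.20) or DMSO replicate 2 (-0.20).

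As these 2 genes moved unequally, the order of the alpha subunits turned in the deposited values. It did not turn after GC and length adjustment, which keeps each gene's mean over the 6 libraries. After that adjustment the mean of HIF1A lay below that of EPAS1 in both groups, though only by little in DMSO. HIF1A stood at 0.480, 0.516 and 0.466 times EPAS1 in the 16'-DEC libraries and at 1.64, 1.31 and 1.47 times EPAS1 in the DMSO libraries. Multiplying a library by a factor leaves such a ratio of TPM as it is. The difference was -1.58 on the log2 scale of (TPM + 1) and -0.37 after GC and length adjustment, with an exact permutation p of 0.1 (2-sided), the smallest that 3 against 3 libraries can give; adjusted over the 4 ratios tested it was also 0.1.

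VHL (ENSG00000134086, chromosome 3, 10141008 to 10152220), the substrate receptor of the ligase that marks HIF alpha for destruction, had 31.5, 33.1 and 29.05 TPM with 16'-DEC and 39.9, 40.7 and 41.1 TPM in DMSO. The treated libraries were all lower, and the DMSO libraries lay close together. The change was -0.37 ± 0.0777 (limma adjusted p = 0.00228). It was only 0.06 below the median change of all genes, and it did not pass with median-of-ratios scaling (-0.03), quantile normalization (-0.04) or GC and length adjustment (-0.01).

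The 3 HIF prolyl hydroxylase genes differed in their changes. EGLN1 (ENSG00000135766, chromosome 1, 231363751 to 231425044), the main oxygen sensor among them, had 45.4, 43.2 and 41.4 TPM with 16'-DEC and 78.3, 93.9 and 67.7 TPM in DMSO. The treated libraries were close together and the DMSO libraries spread widely, without overlap. EGLN1 fell by 0.86 on the log2 scale (SE 0.116, limma adjusted p = 1.54e-04), but was at -0.09 and did not pass after GC and length adjustment. EGLN2 (ENSG00000269858, chromosome 19, 40798996 to 40808433), whose product is mainly nuclear, had 38.5, 34.3 and 40.5 TPM with 16'-DEC and 22.8, 29.97 and 25.6 TPM in DMSO. All treated libraries were higher, and the change was 0.52 ± 0.112 (limma adjusted p = 0.00263). Of the EGLN2 exon bases, 30.6% are shared on the same strand with the readthrough gene RAB4B-EGLN2, which was listed at 0.394 to 1.07 TPM with 16'-DEC and 0.106 to 0.306 TPM in DMSO, so reads could be divided between them.

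EGLN3 (ENSG00000129521, chromosome 14, 33924231 to 34462774), which hypoxia is known to induce strongly, was the least abundant of the 10. It had 7.38, 5.15 and 5.95 TPM with 16'-DEC and 6.74, 6.86 and 7.04 TPM in DMSO. The treated libraries lay on both sides of the narrow DMSO range. The change of -0.15 did not pass (limma adjusted p = 0.303), and its 95% interval ran from -0.43 to 0.13; quantile normalization turned it to 0.37, which passed, and median-of-ratios scaling to 0.16, which did not. EGLN1 stood at 1.18, 1.26 and 1.02 times EGLN2 with 16'-DEC and at 3.44, 3.13 and 2.65 times EGLN2 in DMSO. EGLN3 stood at 0.192, 0.150 and 0.147 times EGLN2 with 16'-DEC and at 0.296, 0.229 and 0.276 times EGLN2 in DMSO. Both ratios were lower in every treated library, with differences of -1.38 and -0.67 on the log2 scale (exact permutation p = 0.1 for each, the smallest possible). After GC and length adjustment they were -0.35 and -0.07, the second with an exact permutation p of 0.7.

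HIF1AN (ENSG00000166135, chromosome 10, 100529072 to 100559998), the asparaginyl hydroxylase, had 40.9, 36.3 and 27.9 TPM with 16'-DEC and 26.7, 22.4 and 26.2 TPM in DMSO. The lowest treated library lay just above the highest DMSO library, and the treated libraries differed more among themselves than the DMSO libraries did. The change of 0.45 ± 0.139 passed (limma adjusted p = 0.0166), but not without 16'-DEC replicate 1 (0.33), 16'-DEC replicate 2 (0.42) or DMSO replicate 2 (0.37). No strand marking is described for the libraries, and HIF1AN shares 325 exon bases with NDUFB8 on the opposite strand. NDUFB8 had 256 to 282 TPM with 16'-DEC and 201 to 227 TPM in DMSO, and its part in the HIF1AN values was not tested.

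**Figure D2:**
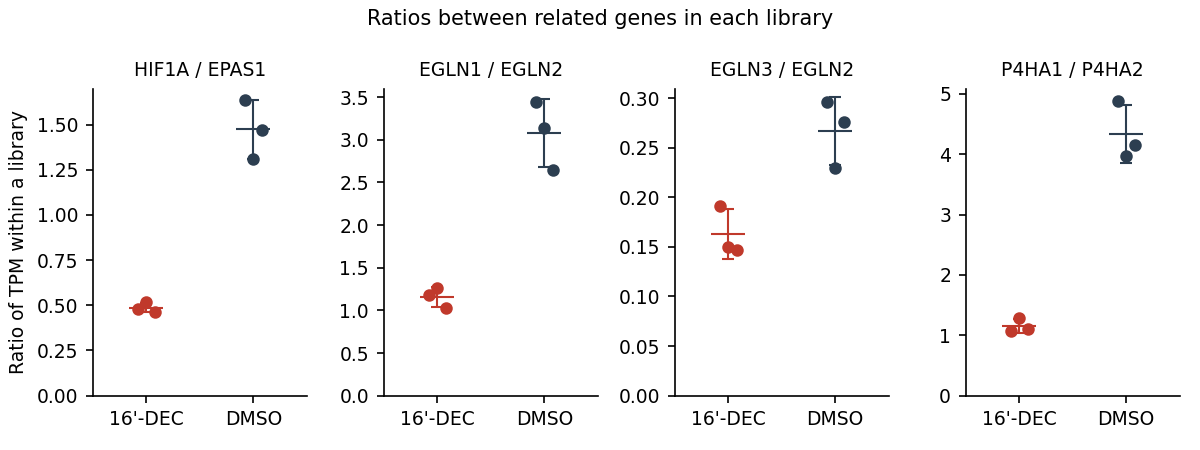
Ratio of the TPM of 2 related genes within each library, with 16'-DEC left of DMSO; points are libraries and bars are the mean ± SD of 3. In all 4 ratios the 16'-DEC libraries lie below the DMSO libraries, and P4HA1 over P4HA2 is 1.06 to 1.29 with 16'-DEC and 3.97 to 4.89 in DMSO.

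The collagen prolyl 4-hydroxylase subunits moved in opposite directions in the deposited values, but after GC and length adjustment both were called higher (P4HA1 at 0.30 and P4HA2 at 1.33). P4HA1 (ENSG00000122884, chromosome 10, 73007217 to 73096974) had 75.6, 87.7 and 72.2 TPM with 16'-DEC and 141, 132 and 126 TPM in DMSO. P4HA2 (ENSG00000072682, chromosome 5, 132191838 to 132295315) had 71.0, 68.1 and 65.2 TPM with 16'-DEC and 28.9, 33.2 and 30.2 TPM in DMSO. Neither gene overlapped between groups, and the treated libraries held the 2 transcripts at nearly equal levels where DMSO libraries held far more P4HA1. P4HA1 fell by 0.75 (SE 0.0913, limma adjusted p = 7.76e-05) and P4HA2 rose by 1.12 (SE 0.0807, limma adjusted p = 2.95e-06), which is above 98.3% of tested genes. P4HA1 stood at 1.06, 1.29 and 1.11 times P4HA2 with 16'-DEC and at 4.89, 3.97 and 4.16 times in DMSO, a difference of -1.88 on the log2 scale (exact permutation p = 0.1, the smallest possible) and of -1.03 after that adjustment.

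LOX (ENSG00000113083, chromosome 5, 122063195 to 122078360) had 45.4, 41.2 and 37.6 TPM with 16'-DEC and 186, 182 and 175 TPM in DMSO. Both groups were tight, and the means of 41.4 ± 3.92 TPM with 16'-DEC and 181 ± 5.44 TPM in DMSO (SD, n = 3 each) differed 4.37-fold. The change of -2.11 ± 0.0839 (limma adjusted p = 1.72e-07) was the lowest of the 10, and 2.96% of tested genes had a lower one. LOX shares 138 exon bases with SRFBP1 on the opposite strand, which had 2.68 to 3.15 TPM with 16'-DEC and 17.7 to 19.8 TPM in DMSO; its part in the LOX values was not tested.

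The order of levels therefore differed between the groups. With 16'-DEC it ran EPAS1, P4HA1, P4HA2, HIF1A, EGLN1, LOX, EGLN2, HIF1AN, VHL, EGLN3, from 106 down to 6.16 TPM. Each neighbouring pair from HIF1A to VHL overlapped in range, so the order of neighbours there was not resolved. Genes further apart could still be ranked, as HIF1A lay wholly above EGLN2, HIF1AN and VHL. In DMSO it ran HIF1A, LOX, P4HA1, EPAS1, EGLN1, VHL, P4HA2, EGLN2, HIF1AN, EGLN3, from 187 down to 6.88 TPM. There the ranges of HIF1A and LOX, of P4HA1 and EPAS1, of P4HA2 and EGLN2 and of EGLN2 and HIF1AN overlapped. EGLN3 was last and apart from its neighbour in both groups.

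Fold changes in these libraries went with the GC content of the transcripts, and the 10 genes span much of that range. HIF1A (39.2% GC in the GENCODE 29 transcript used) and LOX (39.6%) belong to a class under 40% GC in which 93.4% of 1968 genes were called lower, with a median change of -1.46. P4HA1 (40.9%) and EGLN1 (44.1%) belong to the class from 40% to 45%, with 79.7% called lower and a median of -0.86. EGLN3 (46.4%), HIF1AN (46.8%), VHL (47.3%) and P4HA2 (49.1%) lie between 45% and 50%. There 15.9% of genes were called higher and 50.8% lower, and the median was -0.33. EPAS1 (52.6%) lies between 50% and 60%, with 39.8% called higher, 22.2% lower and a median of 0.14. EGLN2 (63.0%) lies above 60%, where 46.9% were called higher and 12.6% lower.

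**Figure D3:**
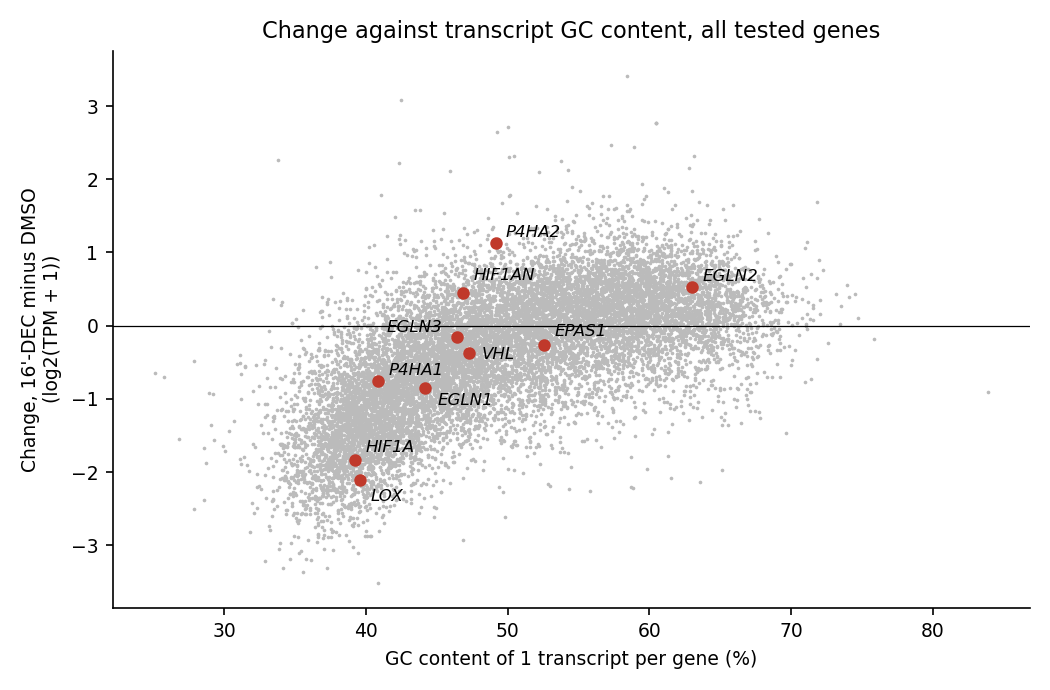
Change on the log2(TPM + 1) scale against the GC content of 1 transcript per gene; grey points are tested genes with a GC value and red points are the 10 genes. P4HA2, at 49.1% GC and a change of 1.12, stands above most genes of like GC content, while HIF1A and LOX lie among the many low-GC genes that fell.

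An adjustment that removed the trend with GC content and transcript length from each library, and with it re-centred the library, left 4 of the 10 higher and 2 lower, where 34.5% of all genes were called higher and 31.7% lower (66.2% in all). LOX (-0.80) and HIF1A (-0.52) stayed below DMSO and past the threshold, at a smaller size. After it 9.20% of genes had a lower change than LOX and 18.2% than HIF1A, against 2.96% and 5.77% as deposited. P4HA1 turned to 0.30 and passed in that direction, and EGLN1 (-0.09), VHL (-0.01) and EPAS1 (-0.15) did not pass. P4HA2 was at 1.33, HIF1AN at 0.93 and EGLN2 at 0.26, all past the threshold. Of the 10, HIF1A, LOX, P4HA2 and EGLN2 kept their direction and call under each scaling and under this adjustment; HIF1AN did too, but lost its call without 1 library as given above.

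**Figure D4:**
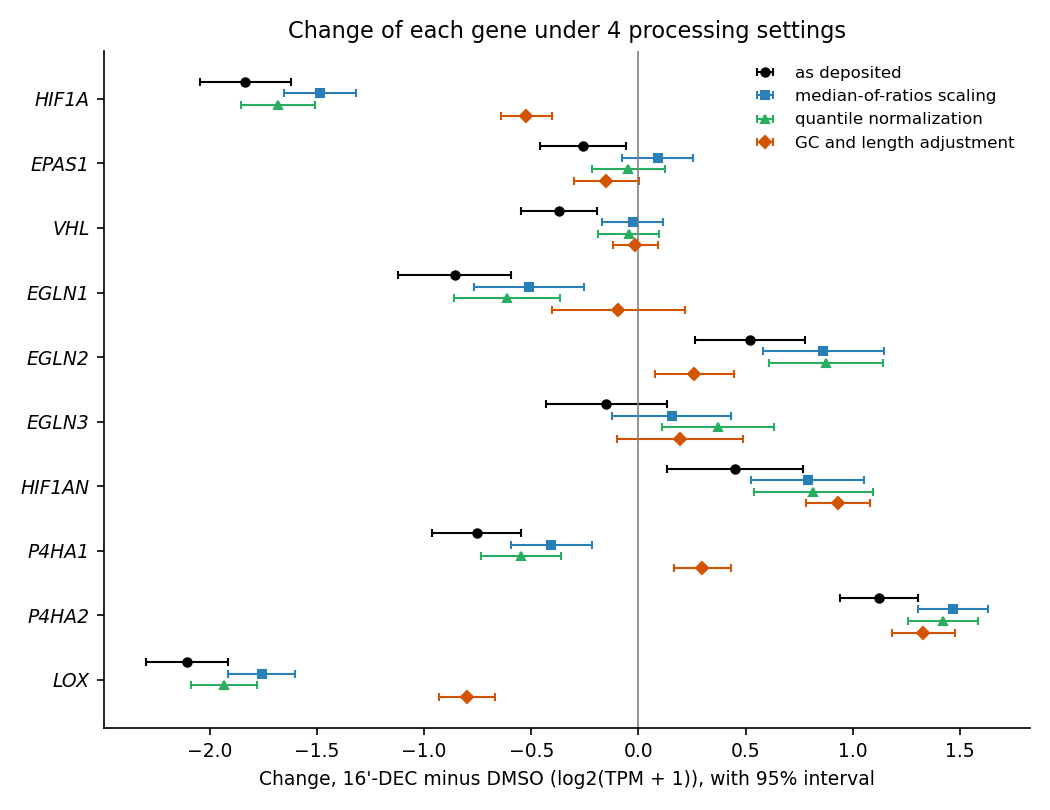
Change of each gene (16'-DEC minus DMSO, log2(TPM + 1)) with its 95% interval under 4 processing settings. HIF1A and LOX lie below 0 and P4HA2, EGLN2 and HIF1AN above 0 under all 4, while P4HA1 changes sign with the GC and length adjustment (-0.75 as deposited, 0.30 after it).

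By Euclidean distance between the profiles of log2(TPM + 1) over the 6 libraries, each centred on its mean, the genes most like HIF1A were PPP1CB (distance 0.0588), SKP2 (0.0601) and LMNB1 (0.071). Those most like LOX were STXBP3 (0.0655), KPNA5 (0.0745) and TMED5 (0.0748). Those most like EPAS1 were UBAC2-AS1 (0.0502), ZNF517 (0.0604) and PLCG1 (0.064). UBAC2-AS1 and ZNF517 did not pass (limma adjusted p = 0.105 and 0.0506). UBAC2-AS1 was also near the minimum, at 0.819 ± 0.146 TPM with 16'-DEC and 1.21 ± 0.196 TPM in DMSO. PPP1CB, a catalytic subunit of protein phosphatase, had 70.8 ± 8.24 TPM with 16'-DEC and 255 ± 12.0 TPM in DMSO. STXBP3, a vesicle fusion protein, had 12.6 ± 0.882 TPM with 16'-DEC and 57.0 ± 1.32 TPM in DMSO. With 6 libraries in 2 groups, such a distance is small for any gene with a change of like size.

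The other genes of the pathway were taken from 6 lists. Among partners, coactivators and ligase subunits of the HIF system, 12 of 14 passed the minimum; 3 rose, 5 fell and 4 did not pass; the median was -0.12, beside -0.31 for all genes. The calls were near the share over all tested genes (22.7% higher, 48.9% lower), and the median was -0.20 without DMSO replicate 1 and -0.07 without DMSO replicate 2. CUL2, the cullin scaffold of the VHL ligase, fell to 22.5 ± 2.16 TPM with 16'-DEC, against 74.7 ± 3.93 TPM in DMSO (-1.69, limma adjusted p = 5.83e-07; -0.32 after GC and length adjustment). The 2 elongin adaptors of that ligase differed: ELOB rose by 0.99, while ELOC fell by 0.62 but was at 0.71 after that adjustment. NEDD8, the ubiquitin-like protein that activates cullins, rose by 0.60, the coactivator EP300 fell by 0.75, and the ligase SIAH1, which targets EGLN enzymes, fell by 0.79 but was at 0.63 after the adjustment. EP300 did not pass with no filter on low values, with median-of-ratios scaling (-0.42) or quantile normalization (-0.31), or without 16'-DEC replicate 2 (-0.81), DMSO replicate 1 (-0.66) or DMSO replicate 3 (-0.73), and was at -0.43 without 16'-DEC replicate 3. The split of 3 higher and 5 lower became 5 and 3 under median-of-ratios scaling, 7 and 3 once quantile-normalized and 6 and 4 after GC and length adjustment. In that order, 37.1%, 42% and 34.5% of all tested genes were called higher and 37.7%, 33.3% and 31.7% lower.

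Known HIF target genes other than the 10 were called in both directions. Of 33, 30 passed the minimum; 11 rose, 12 fell and 7 did not pass, where 22.7% of all tested genes were called higher and 48.9% lower. The median was -0.05 and ran from -0.10 without DMSO replicate 1 to 0.02 without DMSO replicate 2. VEGFA, the angiogenic growth factor, fell to 51.0 ± 4.36 TPM with 16'-DEC, against 129 ± 3.41 TPM in DMSO (-1.32, limma adjusted p = 1.21e-06), and was at -1.47 after GC and length adjustment. BNIP3, a mitophagy receptor, fell by 1.15 to 185 ± 6.18 TPM with 16'-DEC, against 413 ± 23.5 TPM in DMSO (limma adjusted p = 1.1e-06; -0.61 after adjustment). ERO1A, an oxidase of the endoplasmic reticulum, and INSIG2, a sterol regulator, fell by 1.14 and 0.86, but were at 0.26 and 0.54 after adjustment. The glycolytic enzymes ENO1 and ALDOA rose by 1.06 and 1.04, ENO1 to 2652 ± 116 TPM with 16'-DEC against 1278 ± 162 TPM in DMSO. The split of 11 higher and 12 lower became 16 and 10 under median-of-ratios scaling, 14 and 11 once quantile-normalized and 16 and 7 after GC and length adjustment. In that order, 37.1%, 42% and 34.5% of all tested genes were called higher and 37.7%, 33.3% and 31.7% lower.

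Among collagen-modifying enzymes and collagen chaperones, the partners of P4HA1 and P4HA2, 12 of 14 passed the minimum, 10 rose and 2 fell, where 22.7% of all tested genes were called higher and 48.9% lower. Their median was 0.54 beside -0.31 for all genes, and 0.38 beside 0.02 after GC and length adjustment, where 9 were called higher and 2 lower, against 34.5% and 31.7% of all genes. P4HB, the common partner subunit of P4HA1 and P4HA2, had 1320 ± 25.3 TPM with 16'-DEC and 645 ± 54.1 TPM in DMSO (1.03, limma adjusted p = 3.12e-06). The lysyl hydroxylases split, as PLOD1 and PLOD3 rose by 0.61 and 0.75 while PLOD2, another known HIF target, fell by 2.14. PLOD2 had 44.0 ± 0.427 TPM with 16'-DEC and 198 ± 15.5 TPM in DMSO (limma adjusted p = 1.31e-07), and was at -0.70 after adjustment. P3H4, a partner of the collagen-modifying complex, rose by 0.75. COLGALT2, a collagen galactosyltransferase, fell by 0.56 but did not pass with median-of-ratios scaling (-0.23) or quantile normalization (-0.13).

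The genes around LOX were mostly low. Of 10 LOX family members and maturation factors, 4 passed the minimum, 1 rose, 2 fell and 1 did not pass, where 22.7% of all tested genes were called higher and 48.9% lower. The median was -0.32, and -0.18 without DMSO replicate 2. BMP1, the protease that releases active LOX, rose by 0.52 and had 8.45 ± 0.564 TPM with 16'-DEC and 5.59 ± 0.381 TPM in DMSO. FN1 (fibronectin), which binds LOX, fell by 0.57 but did not pass with median-of-ratios scaling (-0.22) or after GC and length adjustment (-0.30). LOXL4 fell by 0.33, but quantile normalization turned it to 0.13 and median-of-ratios scaling to 0.00467, and it did not pass without DMSO replicate 2 (-0.27) or DMSO replicate 3 (-0.30). The counts of 1 higher and 2 lower became 1 and 0 under median-of-ratios scaling and 1 and 1 once quantile-normalized. In that order, 37.1% and 42% of all tested genes were called higher and 37.7% and 33.3% lower. Of 12 collagen and elastin genes, not all of them established substrates of LOX, 2 passed the minimum, COL18A1 and COL6A1. ELN, COL1A1, COL1A2, COL3A1, COL5A1 and COL5A2 were among those under it. The median change of -0.41 lay between values of opposite sign, -0.95 for COL18A1 and 0.13 for COL6A1. COL18A1 fell by 0.95 and had 16.8 ± 2.92 TPM with 16'-DEC and 33.2 ± 3.21 TPM in DMSO (limma adjusted p = 1.85e-04). COL6A1, at 1.59 ± 0.00643 TPM with 16'-DEC and 1.36 ± 0.166 TPM in DMSO, did not pass (limma adjusted p = 0.355), though both scalings called it higher.

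Among other oxygenases that use 2-oxoglutarate, as the EGLN and P4HA enzymes do, 17 of 18 passed the minimum; 4 rose, 6 fell and 7 did not pass, where 22.7% of all tested genes were called higher and 48.9% lower. The median was -0.10, but -0.23 without 16'-DEC replicate 1, -0.17 without 16'-DEC replicate 2, 0.10 without 16'-DEC replicate 3 and 0.01 without DMSO replicate 3. Only 2 were called higher without 16'-DEC replicate 1, 16'-DEC replicate 2 or DMSO replicate 1. Over all 14275 tested genes, the higher calls then numbered 2773, 2884 and 2862, against 3236 with every library. RIOX2, a ribosomal oxygenase, fell by 1.35. The DNA demethylation enzymes TET1 and TET2 changed by -1.56 and -1.46. These 3 genes were at -0.97, -0.38 and -0.54 after GC and length adjustment. KDM6A, a histone demethylase, fell by 0.83 but was at 0.23 after that adjustment. JMJD6, a lysyl hydroxylase of splicing factors, rose by 0.97 and had 101 ± 4.29 TPM with 16'-DEC and 51.3 ± 4.44 TPM in DMSO (limma adjusted p = 9.41e-06). ALKBH5, an RNA demethylase, rose by 0.31 but did not pass after GC and length adjustment with the replicate number as a block (0.19). The split of 4 higher and 6 lower became 8 and 6 with either scaling and 9 and 5 after GC and length adjustment. Of all tested genes, median-of-ratios scaling called 37.1% higher and 37.7% lower, and quantile normalization 42% and 33.3%. After the adjustment the shares were 34.5% and 31.7%.

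**Figure D5:**
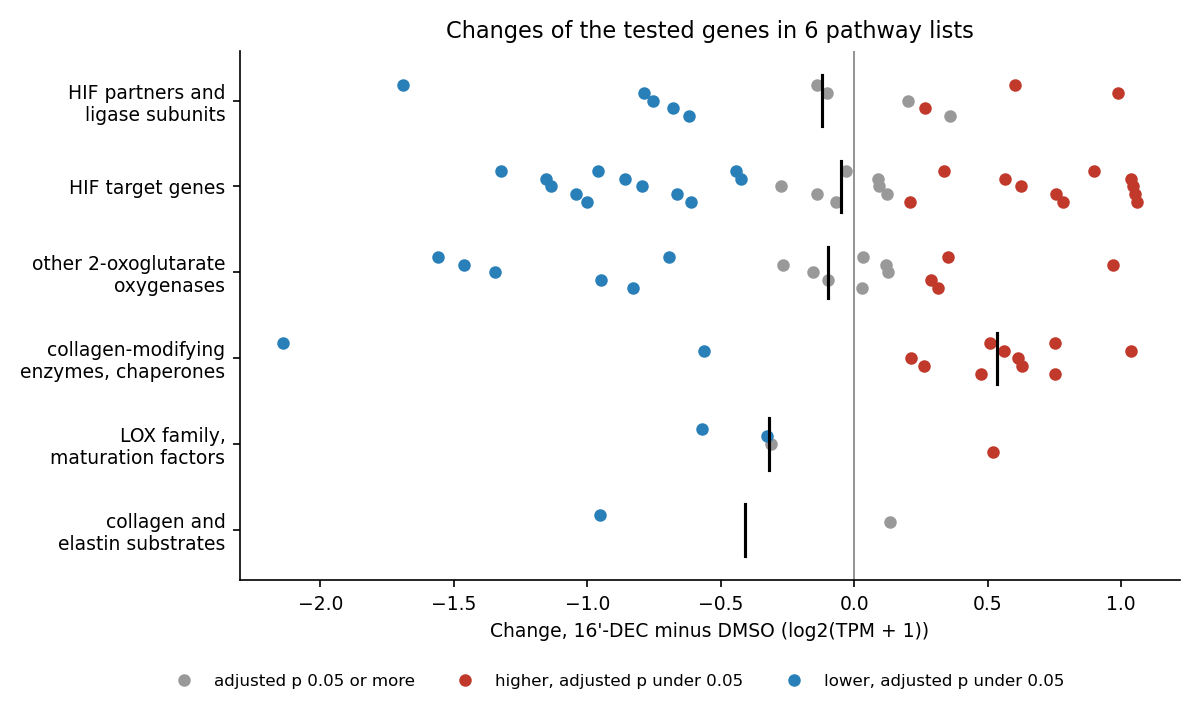
Change of each tested gene (16'-DEC minus DMSO, log2(TPM + 1)) in the 6 lists; red points rose and blue points fell at an adjusted p under 0.05 (limma), grey points did not pass, and black bars are list medians. The collagen-modifying enzymes and chaperones have a median of 0.54, with PLOD2 far to the left at -2.14, while HIF target genes lie on both sides of 0.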

How the data were processed

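Poly(A) RNA of 6 Huh7 libraries was sequenced. The authors deposited 1 table of TPM values, scaled per library to a fixed sum. Per the submitters' processing notes the build was GRCh38, and HTSeq 0.6.1, HISAT2 2.0.1, DESeq2 and cutadapt 1.9.1 were used, in roles not listed there. TPM keep no depth, so no counting interval was possible.

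Log2(TPM + 1) values of the 14275 genes averaging 1 TPM or more were fitted in R 4.3.3 by limma 3.58.1 (eBayes, mean trend, 2-sided, Benjamini-Hochberg, threshold 0.05), a scale that understates changes of low genes. The fit was tested on simulated data. Ratios were tested by exact permutation. GC content and length came from GENCODE 29 transcripts (93.1% of tested genes), and splines with 5 degrees of freedom each were removed. Members, lists and tests were chosen with earlier results of these data known. From each list, at most 4 genes are named in the direction with more calls and at most 2 in the opposite one, by lowest adjusted p. COL6A1 was named after its values were seen. The alternatives tried are given with their effect in the closing section. Figures were drawn with matplotlib 3.10.9.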

Additional observations from a re-analysis of the deposited data

How the results depend on the processing

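Pseudocounts, the filter, scaling, GC content and length, the mean trend, the replicate number as a block and each left-out library were varied. HIF1A, EGLN2, P4HA2 and LOX kept direction and call under all of these alternatives. Genes called higher numbered 5990 with quantile normalization and 5290 with median-of-ratios scaling, against 3236 as deposited, and those called lower 4213 after GC and length adjustment (3982 with the replicate block beside it), against 6974. EPAS1 did not pass with no filter (-0.26), quantile normalization (-0.0467) or GC and length adjustment (-0.15, with or without the block), was reversed by median-of-ratios scaling (0.0896), and ran from -0.31 to -0.20 over left-out libraries. VHL did not pass with median-of-ratios scaling (-0.0274), quantile normalization (-0.0446) or after adjustment (-0.0144, with or without the block), nor did EGLN1 after it (-0.0933, likewise). EGLN3 turned to 0.16 with median-of-ratios scaling, to 0.37 under quantile normalization and to 0.19 after adjustment, also with the block. P4HA1 turned to 0.30 after adjustment, with or without the block. HIF1AN did not pass with no filter (0.45) and ran from 0.33 to 0.60 over left-out libraries. After adjustment, with or without the block, ELOC turned to 0.71, SIAH1 to 0.63, ERO1A to 0.26, INSIG2 to 0.54 and KDM6A to 0.23. With median-of-ratios scaling LOXL4 turned to 0.00467, ZNF517 to 0.0459 and PLCG1 to 0.0761, and with quantile normalization LOXL4 turned to 0.13, UBAC2-AS1 to 0.20 and ZNF517 to 0.24. In the LOX family list median-of-ratios scaling called 1 of 4 tested members, against 3 of 4 as deposited. In the list of collagen and elastin genes either scaling called 2 of 2 tested members, against 1 of 2. Over all tested genes, quantile normalization called 75.2% and median-of-ratios scaling 74.7%, against 71.5% as deposited. With no filter all 12 collagen and elastin genes entered the test and 4 were called, beside 11875 of all 39343 genes then tested. The causes of these shifts were not tested.

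Libraries that share a replicate number did not deviate together (correlations of deviations from the group means 0.0941, -0.182 and -0.0726), so the numbers were not taken as pairs. With the replicate block 9837 genes were called, against 10210, and the call on each of the 10 genes was as without it. Permuted within pairs, the 4 ratios have an exact p of 0.25, the smallest possible with 3 pairs. Depth is unknown, which limits most what can be said of EGLN3 and of genes near 1 TPM.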
